A study of Mus musculus with 127 samples.

Results

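The 5 genes described here, Dsn1, Rec8, Mlh3, Hjurp and Tacc3, encode proteins of the kinetochore, the cohesin ring, meiotic repair, the centromere and the spindle, and were followed in the cortex of mice with mutations of Chd8. They are 5 of the 54838 gene rows of the deposited count tables and were chosen by name. The choice was made with results of the same data in view, namely the difference between germline heterozygotes and wild type in whole cortex and in the synaptic fraction. Values from those contrasts are therefore given as a description, without a test. All 5 genes passed the filter on low counts in every comparison.

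Poly(A) RNA was sequenced from mouse cortex at about postnatal day 60, and 123 libraries were analysed. In the germline line, Chd8+/- heterozygotes (HET), whose mutant allele is a 5 bp deletion present in every cell, were compared with wild-type (WT) mice. The germline libraries comprised whole cortex (15 WT, 16 HET), a nuclear fraction (12 WT, 9 HET), a synaptic (synaptosome) fraction (11 WT, 7 HET) and a cytosolic fraction (5 WT, 7 HET). In the conditional line, Camk2a-Cre removes a floxed Chd8 allele in excitatory forebrain neurons, so glia and inhibitory neurons keep the gene. Conditional whole cortex comprised 8 Chd8+/flox libraries without Cre and 6 Camk2a-Cre Chd8+/flox libraries, all with a floxed allele. The nuclear and synaptic fractions of the conditional line came from mice that all carried Camk2a-Cre by their labels, with Chd8+/+ (WT, 4 and 4 libraries), Chd8+/flox (HET, 6 and 5) or Chd8flox/flox (HOM, 3 and 5). Both sexes were present in each experiment, and each library of a fraction is labelled as a separate biological replicate. In such bulk tissue, fewer cells that express a gene and less RNA per cell cannot be told apart.

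During cell division the kinetochore assembles on centromeric chromatin that contains the histone variant CENP-A and binds spindle microtubules. Cohesin holds sister chromatids together until anaphase, and in meiosis a dedicated cohesin subunit and a set of mismatch repair proteins serve crossover formation between homologous chromosomes. These proteins are best known from mitotic and meiotic cells, whereas neurons of the adult cortex do not divide. Chd8 encodes a chromatin remodeller, and its human counterpart is among the genes most firmly linked to autism.

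Dsn1 (ENSMUSG00000027635), a subunit of the MIS12 complex in the outer kinetochore, lies on the minus strand of chromosome 2 (GRCm38, chr2:156995265-157007154, 3354 bases of exon). Rec8 (ENSMUSG00000002324), the meiosis-specific kleisin that closes the cohesin ring, lies on the plus strand of chromosome 14 (chr14:55618037-55625395, 2935 bases of exon), 3.36 Mb from Chd8 on the same chromosome. Mlh3 (ENSMUSG00000021245), a mismatch repair protein that serves meiotic crossover formation, lies on the minus strand of chromosome 12 (chr12:85234520-85270599, 7554 bases). Hjurp (ENSMUSG00000044783), the chaperone that deposits CENP-A, lies on the minus strand of chromosome 1 (chr1:88262471-88277633, 8331 bases). Tacc3 (ENSMUSG00000037313), which stabilises spindle microtubules together with clathrin and the polymerase CKAP5, lies on the plus strand of chromosome 5 (chr5:33658128-33678995, 3552 bases). Of the Tacc3 exon bases, 289 are shared with Tmem129 on the other strand, whose reads cannot be told apart from those of Tacc3 where counting ignored strand.

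The 250 bases upstream of the RefSeq start (GRCm38.p6) are shown for Dsn1, Rec8 and Mlh3, the 3 members whose germline cortex values lie farthest from 0. Each is written from 5′ to 3′ on the strand of its gene, and capitals mark matches to the motifs searched.
Dsn1 chr2:157007076-157007325: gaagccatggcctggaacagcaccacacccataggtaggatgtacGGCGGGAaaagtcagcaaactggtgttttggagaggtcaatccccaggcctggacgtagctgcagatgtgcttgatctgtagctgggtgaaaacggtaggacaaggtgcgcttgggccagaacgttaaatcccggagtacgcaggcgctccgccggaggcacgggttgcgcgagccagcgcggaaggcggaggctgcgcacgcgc
Rec8 chr14:55617916-55618165: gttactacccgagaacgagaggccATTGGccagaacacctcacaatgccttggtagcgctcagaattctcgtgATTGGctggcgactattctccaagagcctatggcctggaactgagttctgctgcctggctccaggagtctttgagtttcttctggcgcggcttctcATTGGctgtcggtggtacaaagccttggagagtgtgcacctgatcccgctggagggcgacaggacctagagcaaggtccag
Mlh3 chr12:85270600-85270849: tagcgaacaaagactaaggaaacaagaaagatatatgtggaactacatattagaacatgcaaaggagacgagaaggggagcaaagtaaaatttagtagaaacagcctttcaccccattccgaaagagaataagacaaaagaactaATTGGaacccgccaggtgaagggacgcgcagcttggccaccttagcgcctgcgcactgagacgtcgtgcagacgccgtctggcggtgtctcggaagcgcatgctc

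Motifs of promoters of cell-cycle genes were searched on both strands of these windows, namely CCAAT (the NF-Y box, found in 34.5% of the 27025 RefSeq promoter windows of this length), TTTGAA (the CHR element, 16.3%), CCGGAA (an ETS core, 12.2%) and GGCGGGA (an E2F site, 9.76%). No matches of different motifs overlapped. The Dsn1 window held GGCGGGA, starting 205 bases before the start. The Rec8 window held ATTGG, the reverse complement of CCAAT, at 3 places starting 226, 177 and 81 bases before the start, and the Mlh3 window held it once, 105 bases before. For Mlh3 the table lists 2 windows, and the first was used. The Hjurp window (chr1:88277580-88277829) held ATTGG 182 bases and CCGGAA 42 and 16 bases before the start, and the Tacc3 window (chr5:33657878-33658127) held none of these letters. GC content was 61.2% for Dsn1, 56.0% for Rec8, 48.8% for Mlh3, 60.8% for Hjurp and 65.6% for Tacc3, against a median of 52.0% over all windows. The ratio of observed to expected CpG was between 0.512 (Rec8) and 1.02 (Mlh3) in the 5 windows, against a median of 0.378 over all.

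Library totals, in units of 1000000 counts, were 19 to 56.6, and 98.1 to 134.6 in conditional cortex. Levels are given as counts per 1000000 counts of the library total (CPM), and differences as log2 fold changes from edgeR with their standard error (SE). Chd8 itself was lower in HET than in WT in germline cortex (62 against 93.2 CPM, log2 fold change -0.58), synaptic (-0.82, and -0.67 without 2 WT libraries described next) and cytosolic (-0.43) libraries and was at 117 CPM in both groups in the nuclear fraction (-0.01). The synaptic libraries WT male replicates 1 and 2 of the germline line had a nuclear profile, with 857 and 1221 CPM of the nuclear-retained RNA Malat1 against 55.7 to 184 CPM in the other 9 WT and 18.2 to 89.8 CPM in the 7 HET synaptic libraries of that line, and synaptic genotype values of the 5 genes are given with and without them. Sex markers went against the label in 2 germline nuclear libraries. In the conditional line, the animal numbered 47 is labelled Camk2a-Cre Chd8+/flox but had 0 Cre reads, and the labels give the animal numbered 91 as HET for the nuclear library but as HOM for the synaptic one. Cell-type marker lists showed cortical tissue, with 5 excitatory neuron markers summing to between 5010 and 6910 CPM in germline cortex. The 15 markers of cycling cells summed to 14.6 to 31.6 CPM in WT and 15.3 to 29.4 CPM in HET cortex, and none of the 15 was at 0 in either group.

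In the germline line Dsn1 and Rec8 were lower and Mlh3 was higher in HET than in WT cortex, each with all 16 HET libraries on the same side of the WT median. Hjurp and Tacc3 were higher by smaller amounts that overlapped widely. The same directions were seen in the nuclear and cytosolic fractions for all 5 genes, and in the synaptic fraction for Dsn1, Rec8 and Mlh3, while the synaptic direction of Hjurp and Tacc3 depended on the setting (-0.49 to 0.36 and -0.33 to 0.31). Mlh3 in the cytosolic fraction went from 0.18 to -0.01 with the replicate number as a block. Of 17074 genes tested in cortex, 0.334% passed an adjusted p of 0.05. The choice of genes used this contrast, and nothing is read from the members' share of it.

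Dsn1 in whole cortex ranged from 2.61 to 5.51 CPM in WT (median 3.91) and from 1.75 to 3.87 CPM in HET (median 2.94). The ranges overlapped, with 3 HET libraries below every WT library and 8 WT libraries above every HET library. The means were 4.07 ± 0.782 (SD, n = 15) and 2.92 ± 0.545 (n = 16) CPM, a log2 fold change of -0.47 (SE 0.10). In the synaptic fraction Dsn1 was between 2.43 and 3.97 CPM in WT (median 2.92) and between 1.25 and 2.25 CPM in HET (median 1.39), so that the groups did not overlap, as held for 0.0699% of the genes tested there, from which nothing is read because the choice used this contrast too. The synaptic log2 fold change was -0.84 (SE 0.175), -0.81 (SE 0.176) without the 2 WT males with a nuclear profile, and -0.51 (SE 0.224) with all batch labels that can be estimated as covariates. In the nuclear libraries, most of them from the same animals as the synaptic ones, Dsn1 was between 4.15 and 6.76 CPM in WT (median 5.17) and between 2.52 and 4.02 CPM in HET (median 3.53). All 9 HET libraries were below all 12 WT libraries, a separation that 0.01% of the 19912 genes tested showed. The nuclear log2 fold change was -0.58 (SE 0.118). In the cytosolic fraction the WT libraries held 3.24, 3.72, 4.04, 4.41 and 5.38 CPM and the 7 HET libraries 2.22 to 5.38 CPM (median 3.12). Here 5 of 7 HET libraries lay below all WT libraries, while HET female replicate 4 was as high as the highest WT library. As each library was left out, the cytosolic log2 fold change ran from -0.53 to -0.30. The ends were -0.53 (SE 0.190) without HET female replicate 4 and -0.30 (SE 0.232) without HET male replicate 2.

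Rec8 in whole cortex ranged from 2.73 to 5.15 CPM in WT (median 3.6) and from 1.25 to 3.57 CPM in HET (median 2.33). Of the HET libraries 10 of 16 were below every WT library. The log2 fold change was -0.66 (SE 0.135), with means of 3.77 ± 0.871 (SD, n = 15) and 2.43 ± 0.785 (n = 16) CPM. In the synaptic fraction the WT libraries ranged from 1.94 to 9.05 CPM (median 2.78) and the HET libraries from 0.526 to 2.69 CPM (median 1.18). The highest WT values, 9.05 and 7.78 CPM, were those of the 2 males with a nuclear profile, and without them the WT mean was 2.67 ± 0.548 CPM (SD, n = 9) in place of 3.71 ± 2.39 (n = 11). The synaptic log2 fold change was -1.08 (SE 0.305), -0.91 (SE 0.222) without those males and -1.69 without HET female replicate 4, the HET library with the highest value. The nuclear fraction held 3.2 to 6.18 CPM in WT (median 3.73) and 1.64 to 4.51 CPM in HET (median 3.03), with 8 of 9 HET libraries below the WT median and a log2 fold change of -0.54 (SE 0.158). In the cytosolic fraction WT libraries held 1.81, 1.94, 2.15, 2.5 and 2.52 CPM and HET libraries 0.743 to 2.38 CPM (median 1.73), and the log2 fold change was -0.51 (SE 0.262). It was -0.26 without HET male replicate 1, -0.34 with genotype alone in the fit and -0.86 with the replicate block. Cortical Rec8 counts were 30 to 133 reads per library, and relative counting error is largest at the low end of that range.

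Genes within 5 Mb of Chd8, other than Chd8 and with Rec8 among them, were counted because Rec8 shares its chromosome. In HET against WT of the germline line, 63 of 116 such genes were below 0 in cortex (median log2 fold change -0.01, against 0.00 over all genes tested) and 83 of 146 in the nuclear fraction (-0.02 against 0.01). In the synaptic fraction, with all libraries, 81 of 126 were below 0 (-0.09 against 0.00), and in the cytosolic fraction 62 of 131 (0.01 in both).

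Mlh3 in whole cortex ranged from 23.1 to 29.5 CPM in WT (median 26.5) and from 27 to 38.6 CPM in HET (median 31.9). Of the HET libraries 11 of 16 were above every WT library. The means of 26.4 ± 1.68 (SD, n = 15) and 32.2 ± 3.43 (n = 16) CPM gave a log2 fold change of 0.30 (SE 0.0491). In the synaptic fraction WT libraries held 13 to 27.1 CPM (median 18.4) and HET libraries 19.2 to 25.1 CPM (median 22.6), and the log2 fold change was 0.40 (SE 0.120). The highest WT value there was again that of a male with a nuclear profile, and without both of them the WT mean was 17.1 ± 2.96 CPM (n = 9) and the log2 fold change 0.42 (SE 0.109). Nuclear libraries held 20 to 33.6 CPM in WT (median 23.8) and 22.9 to 30.6 CPM in HET (median 25.8), a log2 fold change of 0.19 (SE 0.0647) with the HET range inside that of WT. Cytosolic libraries held 25.7, 30.5, 32.0, 32.2 and 40.7 CPM in WT and 31.7 to 42.1 CPM in HET (median 36.4), a log2 fold change of 0.18 (SE 0.124) that was 0.27 without WT male replicate 1 and 0.11 without WT male replicate 4.

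Hjurp in whole cortex ranged from 49.3 to 107 CPM in WT (median 77.9) and from 59.4 to 118 CPM in HET (median 91.5), a log2 fold change of 0.19 (SE 0.0907) with 12 of 16 HET libraries above the WT median. The nuclear fraction separated the groups more, with 149 to 255 CPM in WT (median 220) and 229 to 301 CPM in HET (median 266). All 9 nuclear HET libraries were above the WT median and 6 were above every WT library, for means of 212 ± 29.9 (SD, n = 12) and 267 ± 26.1 (n = 9) CPM and a log2 fold change of 0.35 (SE 0.0782). Synaptic libraries of the 2 WT males with a nuclear profile held 196 and 212 CPM, against 31.6 to 55 CPM in the other 9 WT libraries and 38.0 to 50.7 CPM in HET. The synaptic log2 fold change was -0.01 (SE 0.256) with those males and 0.19 (SE 0.0823) without them, and with them it was -0.49 with genotype alone in the fit, -0.30 with the replicate block and -0.32 without HET female replicate 4. Cytosolic libraries held 82.7, 87.1, 87.1, 90 and 144 CPM in WT and 85.2 to 168 CPM in HET (median 109), a log2 fold change of 0.28 (SE 0.145). That value was 0.13 without HET male replicate 2, 0.18 with genotype alone and 0.46 with the replicate block.

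Tacc3 in whole cortex ranged from 4.10 to 8.73 CPM in WT (median 6.12) and from 5.57 to 11.2 CPM in HET (median 7.21), a log2 fold change of 0.27 (SE 0.0957). In the nuclear fraction all 9 HET libraries were above the WT median of 6.91 CPM, with a range of 7.35 to 13.4 CPM against 5.34 to 12.5 CPM in WT and a log2 fold change of 0.39 (SE 0.159). In the cytosolic fraction the WT libraries held 3.66, 4.35, 4.55, 4.61 and 5.21 CPM, and 6 of 7 HET libraries were above all of them (5.16 to 7.76 CPM, median 6.49, log2 fold change 0.58, SE 0.143). Markers of the choroid plexus, the secretory tissue of the ventricles, also had lower values in cytosolic HET libraries (6 of 6 tested of 8 below 0, median -1.69, summed level up to 333 CPM with a median of 14.2 in WT and 6.04 to 13.6 CPM in HET, none at 0), and their part in the cytosolic values of the 5 genes was not tested. Synaptic levels were 2.84 to 16.8 CPM in WT (median 3.94) and 2.48 to 5.47 CPM in HET (median 4.13), with both WT males with a nuclear profile at the top (16.8 and 9.89 CPM). The synaptic log2 fold change was 0.07 (SE 0.232), and 0.21 (SE 0.146) without those males. With all libraries it was -0.29 with genotype alone in the fit, -0.33 with the replicate block and -0.24 without HET female replicate 4.

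**Figure D1:**
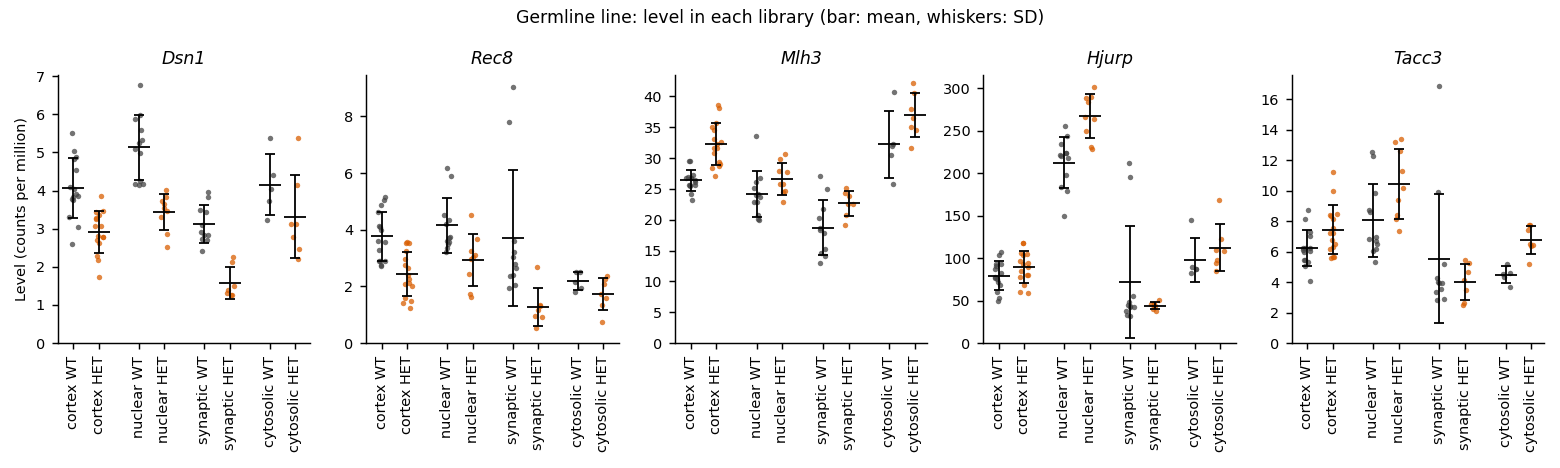
Level of each of the 5 genes in every germline library, in CPM (linear axis), by preparation and genotype (WT dark grey, HET orange). Points are libraries, bars means and whiskers SD. Dsn1 does not overlap between WT and HET in the nuclear and synaptic fractions, and the 2 synaptic WT points far above the rest for Hjurp (196 and 212 CPM) are the males with a nuclear profile.

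The nuclear and cytosolic contrasts may also have been known when the genes were chosen, and the nuclear animals largely are the synaptic ones, so their tests are not independent support. In the nuclear fraction none of the 5 genes passed edgeR's quasi-likelihood test with Benjamini-Hochberg adjustment over 19912 genes, of which 0.0151% passed and 1470 had an unadjusted p under 0.05. The adjusted p was 0.212 for Dsn1, 0.268 for Hjurp, 0.383 for Rec8, 0.462 for Mlh3 and 0.553 for Tacc3. With DESeq2, 0.1% of genes passed, among them Dsn1 (adjusted p 0.00285, log2 fold change -0.58) and Hjurp (adjusted p 0.0212, 0.35), and with edgeR and no filter on low counts Hjurp passed (adjusted p 0.02). Over 8 settings, those that leave out a library each aside, the nuclear adjusted p ranged from 0.00285 to 0.517 for Dsn1 and from 0.02 to 0.49 for Hjurp. Without the 2 libraries whose sex markers went against their labels the nuclear log2 fold changes were -0.53 for Dsn1, -0.47 for Rec8, 0.18 for Mlh3, 0.32 for Hjurp and 0.46 for Tacc3. In the cytosolic fraction, where 0.222% of genes did not overlap between groups, none of the 5 did so and 0 passed, as did 0.0% of 18454 genes by edgeR (606 had an unadjusted p under 0.05, and DESeq2 called 0.0217%), and every adjusted p of the 5 rounded to 1.00.

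Germline cortex libraries carry a pair of batch labels, each with both genotypes. Within the batches labelled CHD80456 and CHD807 the log2 fold changes were -0.42 and -0.52 for Dsn1, -0.76 and -0.57 for Rec8 and 0.32 and 0.29 for Mlh3. For Tacc3 they were 0.29 and 0.19, and for Hjurp 0.31 and 0.06. Females and males analysed alone gave -0.41 and -0.53 for Dsn1, -0.62 and -0.70 for Rec8, 0.32 and 0.29 for Mlh3 and 0.17 and 0.20 for Hjurp. Tacc3 gave 0.39 in females and 0.08 in males, a difference that was not tested. The choroid plexus markers likewise had lower values in HET than in WT cortex (6 of 6 tested of 8 below 0, median log2 fold change -1.43, summed level 9.09 to 547 CPM in WT and 5.38 to 46.5 CPM in HET, none at 0). With the mean log2 CPM of the 8 markers as a covariate the log2 fold changes were -0.46 for Dsn1, -0.64 for Rec8, 0.30 for Mlh3, 0.13 for Hjurp and 0.25 for Tacc3. All 9 nuclear-retained RNAs of a fixed list had log2 fold changes below 0 in HET cortex (median -0.32). In the synaptic fraction genotype was uneven over the batch groups, which follow the month of the first date in the batch label. All HET males were in the May group, which held no WT male. HET female replicate 4 was the only HET library of June and July, so genotype and batch are only partly separable there. Malat1 in that fraction was 103 ± 46.1 CPM in WT without the 2 WT males with a nuclear profile (SD, n = 9) and 52.0 ± 29.7 CPM in HET (n = 7). With Malat1 as a covariate, and without the 2 males, the synaptic values were -0.66 for Dsn1, -0.99 for Rec8, 0.24 for Mlh3, 0.36 for Hjurp and 0.31 for Tacc3. In the nuclear fraction 5 of 5 endothelial markers were below 0 in HET (median -0.47, summed level at most 1470 CPM with a median of 1020 in WT and 438 to 1060 CPM with a median of 770 in HET, none at 0), and their part in the nuclear values was not tested.

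The conditional line asks whether loss of Chd8 in excitatory neurons alone goes with differences in these genes, and its contrasts were not the basis of the choice, although results of the conditional line had been seen by then. None of the 5 genes passed the test in any of the 5 conditional contrasts, in each of which edgeR called 0.0% of genes. Unadjusted p-values under 0.05 were found for 671 genes in cortex, 940 and 2448 in the nuclear fraction of HET and HOM, and 765 and 868 in the synaptic fraction of HET and HOM, and DESeq2 called 0.0184%, 0.0142%, 0.128%, 0.0% and 0.0114% of genes in the same order, with no member among them. Nor did the genotypes separate completely for any member in any of these contrasts, as they did for 0.0367%, 1.06%, 9.58%, 1.08% and 1.43% of genes. Chd8 was lower in Cre-positive than in Cre-negative cortex (51.7 ± 11.3, n = 6, against 73.4 ± 18.9 CPM, n = 8), a log2 fold change of -0.52 that did not pass (adjusted p 0.882 by edgeR). In HOM against WT its log2 fold change was -0.47 in the nuclear and -0.57 in the synaptic fraction, and in HET -0.06 and -0.21. Cre and the deletion go together in conditional cortex and cannot be told apart there.

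Dsn1 in conditional cortex was 3.34 to 5.25 CPM without Cre (median 4.52) and 3.27 to 6.28 CPM with Cre (median 4.29), and both means were 4.43 CPM (SD 0.661, n = 8, and 1.12, n = 6). Its log2 fold change was -0.03, with a 95% interval of -0.36 to 0.29. In the nuclear fraction the WT libraries held 4.01, 4.29, 5.75 and 6.84 CPM, the HET libraries 3.98 to 6.80 CPM (median 4.92) and the HOM libraries 4.23, 4.47 and 4.55 CPM. In the synaptic fraction WT held 1.55, 1.89, 2.02 and 2.06 CPM, HET 1.40, 1.71, 2.00, 2.07 and 3.39 CPM and HOM 1.37, 1.70, 1.84, 1.85 and 2.26 CPM. The genotypes overlapped throughout. The intervals were -0.39 to 0.32 (nuclear HET), -0.50 to 0.35 (nuclear HOM), -0.36 to 0.70 (synaptic HET) and -0.56 to 0.50 (synaptic HOM). The difference between the lines was not tested, and their libraries were made and counted separately.

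Rec8 in conditional cortex was 2.01 to 4.15 CPM without Cre (median 3.50) and 3.02 to 5.07 CPM with Cre (median 3.74), a log2 fold change of 0.21 (95% interval -0.13 to 0.55). Nuclear levels were 1.13, 1.84, 2.65 and 2.76 CPM in WT, 1.6 to 4.15 CPM in HET (median 2.25) and 1.70, 2.62 and 2.91 CPM in HOM. Synaptic levels were 1.38, 1.72, 2.01 and 2.53 CPM in WT, 1.74, 1.93, 2.08, 2.26 and 2.35 CPM in HET, and 1.26, 1.74, 1.75, 1.83 and 2.86 CPM in HOM. No group stood apart, and the log2 fold changes were 0.34 (nuclear HET, interval -0.30 to 0.99), 0.23 (nuclear HOM, -0.49 to 0.95), 0.13 (synaptic HET, -0.37 to 0.63) and 0.02 (synaptic HOM, -0.49 to 0.52). Without the animals numbered 47 and 91, an alternative chosen after the data were seen, the nuclear HET value of Rec8 was 0.59 (interval -0.11 to 1.28), and no member passed in either fraction. With those animals in, it was 0.15 without HET female replicate 2, the library with the highest value, and 0.10 without WT female replicate 2, the library with the lowest. The nuclear HOM value of Rec8 ranged from 0.06 to 0.40 as each library was left out.

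Mlh3 in conditional cortex had means of 25.7 ± 2.47 CPM without Cre (SD, n = 8) and 28 ± 1.95 CPM with Cre (n = 6), a log2 fold change of 0.11 (95% interval -0.08 to 0.29). Its other intervals were -0.33 to 0.14 (nuclear HET), -0.18 to 0.38 (nuclear HOM), -0.31 to 0.16 (synaptic HET) and -0.14 to 0.33 (synaptic HOM). Hjurp had means of 40.7 ± 6.58 and 37.5 ± 7.91 CPM in cortex without and with Cre, a log2 fold change of -0.13 (interval -0.46 to 0.20). In the conditional nuclear fraction Hjurp was 167 to 235 CPM in WT, 139 to 233 CPM in HET and 170 to 190 CPM in HOM. The nuclear intervals of Hjurp were -0.40 to 0.14 (HET) and -0.50 to 0.13 (HOM). Synaptic Hjurp was 40.8, 42.4, 46.6 and 56.0 CPM in WT, 35.1, 36.8, 38.5, 43.2 and 45.2 CPM in HET and 43.5, 45.7, 45.8, 53.0 and 56.2 CPM in HOM, with intervals of -0.41 to 0.03 (HET) and -0.14 to 0.30 (HOM). Tacc3 had means of 5.22 ± 0.686 and 5.64 ± 0.818 CPM in cortex without and with Cre (0.09, interval -0.15 to 0.32). Nuclear libraries held 4.88, 6.01, 6.34 and 9.76 CPM of Tacc3 in WT, 5.91 to 11.1 CPM in HET (median 8.49) and 6.21, 7.80 and 9.31 CPM in HOM. Its nuclear log2 fold changes, 0.34 in HET (interval -0.04 to 0.71) and 0.35 in HOM (-0.09 to 0.79), did not pass (adjusted p 0.933 and 0.496 by edgeR). The HOM value was 0.15 without HOM male replicate 2, and the HET value was 0.53 without WT female replicate 2. Synaptic Tacc3 was 1.89 to 3.84 CPM in WT, 2.54 to 4.22 CPM in HET and 1.74 to 4.88 CPM in HOM, with intervals of -0.34 to 0.76 and -0.44 to 0.69.

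**Figure D2:**
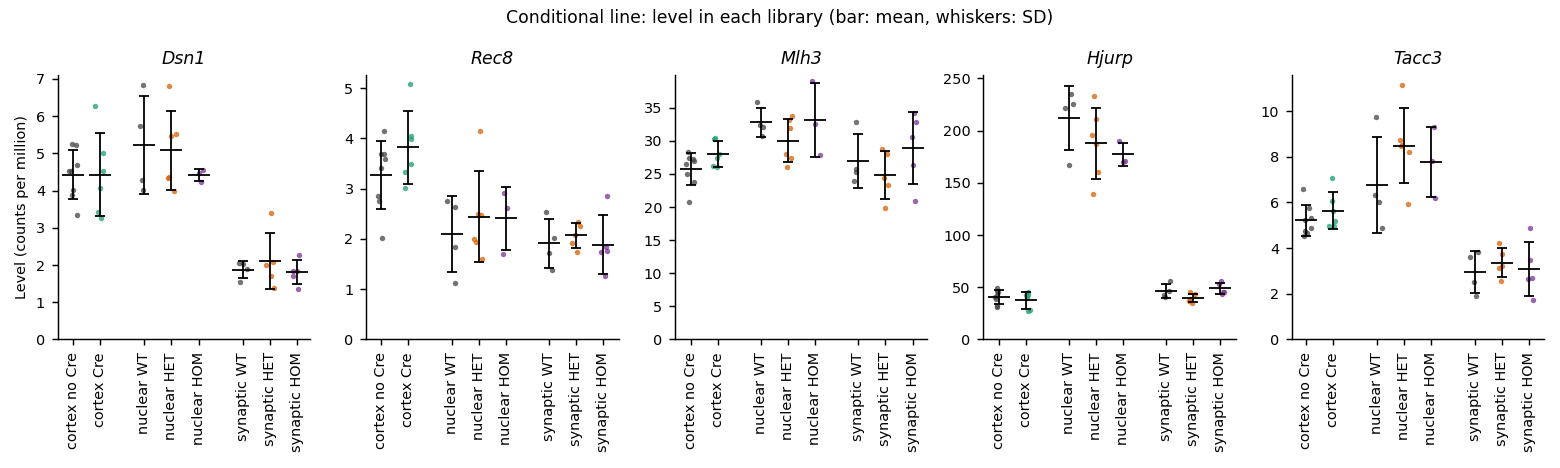
Level of each of the 5 genes in every conditional-line library, in CPM (linear axis), by preparation and genotype. Points are libraries, bars means and whiskers SD. The genotypes overlap for every gene, and Hjurp is several times higher in the nuclear fraction (WT 167 to 235 CPM) than in the synaptic fraction (WT 40.8 to 56.0 CPM).

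**Figure D3:**
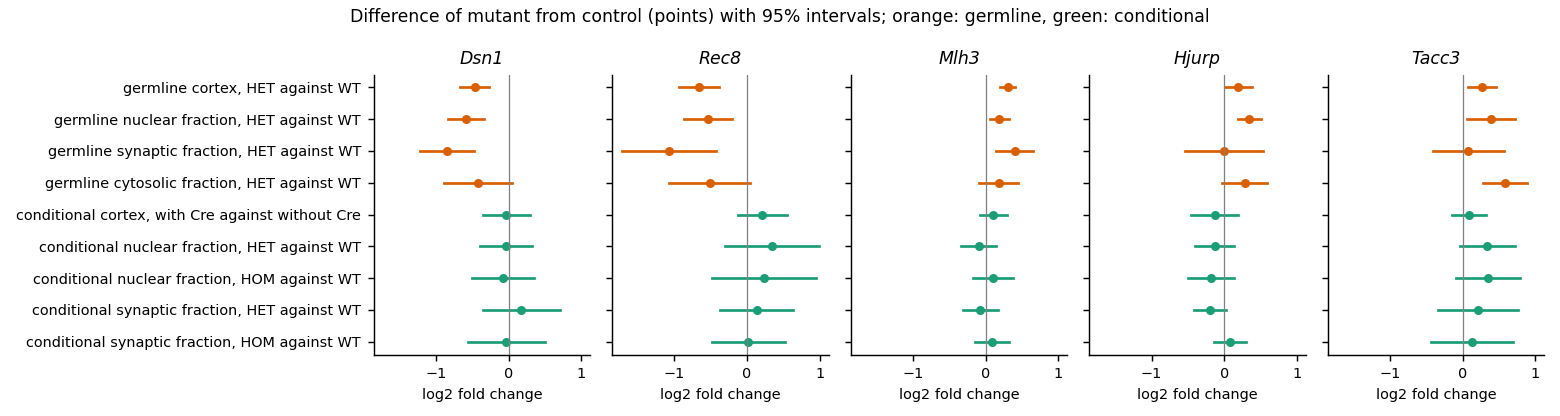
Log2 fold change of mutant against control for the 5 genes in the 4 germline (orange) and 5 conditional (green) contrasts, with 95% intervals from edgeR. In the germline rows the points of Dsn1 and Rec8 lie below 0 and those of Mlh3 above 0. Cytosolic intervals are wide, and those that include 0 are not limited to other genes, with Rec8 and Mlh3 among them. In the conditional rows every interval includes 0. The cortex and synaptic germline rows chose the genes and are shown as a description.

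Nuclear and synaptic WT libraries with the same animal number were compared to place the transcripts in the cell, a contrast that used no mutant. For number 29 the female marker Xist was at 547 CPM in the nuclear and 2.61 CPM in the synaptic library. The male marker Ddx3y was at 0 and 34.6 CPM there, so this pair did not match by sex. It is kept among the 10 germline animals counted. Hjurp was much lower in the synaptic than in the nuclear fraction of both lines, and Dsn1 was lower in CPM in each of the 14 animals. On that scale the median gene was lower too (log2 ratio -0.48 in the germline and -0.57 in the conditional line). The share of all genes that fell in every animal was not counted. Of 18879 genes tested in the germline line 65.9% passed, and of 18715 genes in the conditional line 66.9%. In the germline line 1 of the 5 members passed, Hjurp, lower in the synaptic fraction as were 35.1% of genes (30.8% were higher). In the conditional line 4 of 5 passed, Hjurp, Dsn1 and Tacc3 lower (35.0% of genes) and Mlh3 higher (31.9%). With 5 members and so many genes called, nothing is read from the members' share in either line. Hjurp fell from 215 ± 30.8 to 73.7 ± 69 CPM (SD, n = 10) in the germline line, a log2 fold change of -1.44 (SE 0.233, adjusted p 0.00021 by edgeR), and was lower in 10 of 10 animals. The animals numbered 12, 13 and 29 are both WT males with a nuclear profile in the synaptic fraction and the pair that did not match by sex. Without them the value was -1.87 (adjusted p 1.12e-08 by edgeR). In the conditional line Hjurp was 225, 235, 167 and 222 CPM in the nuclear and 56.0, 40.8, 42.4 and 46.6 CPM in the synaptic library of the same 4 animals, a log2 fold change of -1.66 (SE 0.102, adjusted p 5.19e-09).

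Dsn1 in the 4 conditional-line animals was 4.29, 4.01, 5.75 and 6.84 CPM in the nuclear and 1.55, 2.06, 1.89 and 2.02 CPM in the synaptic library, a log2 fold change of -0.92 (SE 0.224, adjusted p 0.00224 by edgeR). In the germline line Dsn1 was 5.23 ± 0.870 CPM in the nuclear and 3.08 ± 0.510 CPM in the synaptic fraction and lower in 10 of 10 animals, yet its log2 fold change of -0.27 (SE 0.140) did not pass (adjusted p 0.107). Tacc3 fell by 0.66 on the log2 scale in the conditional line (SE 0.193, adjusted p 0.00739 by edgeR) and was lower in 4 of 4 animals. In the germline line it was lower in 8 of 10 animals and did not pass (-0.15, adjusted p 0.51). Mlh3 was 0.24 higher in the conditional line (SE 0.102, adjusted p 0.0484 by edgeR), a call that was lost with DESeq2 (0.0705), with another scaling (0.0543), without a filter (0.0603) and without the animal as a block (0.0722). Rec8 passed in neither line (0.27, adjusted p 0.293, and 0.43, adjusted p 0.24). Without the animal numbered 94, the members called in the conditional line were 2 rather than 4, with adjusted p of 0.0508 for Tacc3 and 0.103 for Mlh3. Mlh3 was also lost without the animal numbered 49 (adjusted p 0.22) or 55 (0.124).

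The direction of Mlh3 and Rec8 between compartments depended on the scaling. In CPM, Mlh3 was lower in the synaptic library of 9 of 10 germline and 4 of 4 conditional animals, and Rec8 of 8 of 10 and 2 of 4, although TMM, the scaling of the fits, gave positive log2 fold changes. Over all genes tested the median log2 ratio of synaptic to nuclear CPM was -0.48 in the germline and -0.57 in the conditional line, and the median under TMM was -0.06 in both. Mitochondrially encoded transcripts held 8.23% of synaptic and 3.71% of nuclear counts in the germline line (medians), and 7.38% and 3.97% in the conditional line. Hjurp and Dsn1 were lower in the synaptic fraction on both scales, although the germline TMM value of Dsn1 did not pass.

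**Figure D4:**
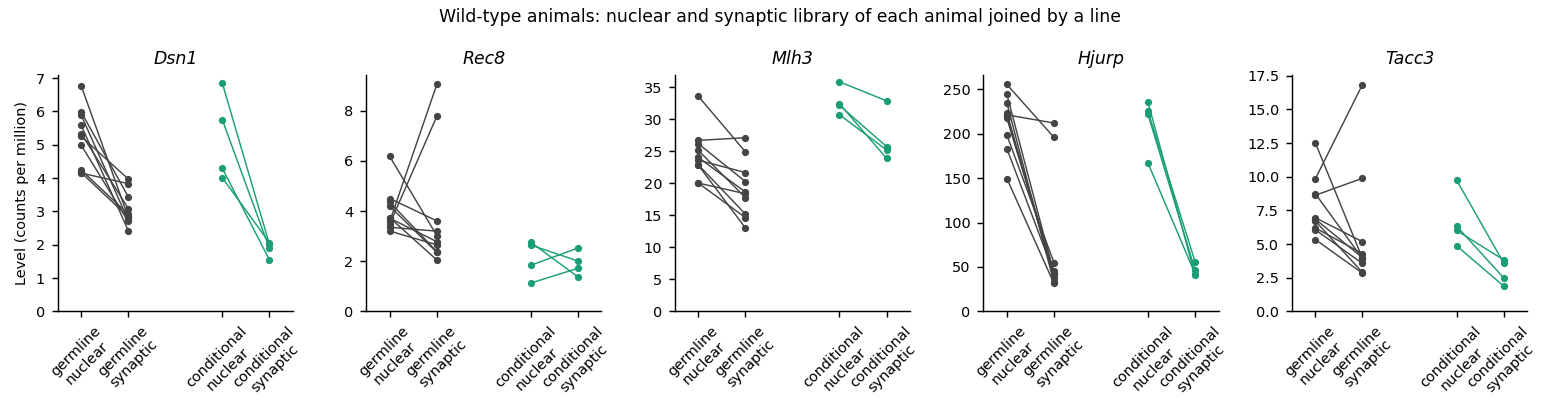
Level of each gene in the nuclear and synaptic wild-type library with the same animal number, in CPM (linear axis). Lines join the libraries of 10 germline (dark grey) and 4 conditional-line (green) numbers. The sex markers of the germline pair numbered 29 did not match. Every line falls for Dsn1 and Hjurp. The 2 dark grey lines of Hjurp that end at 196 and 212 CPM are the males whose synaptic libraries had a nuclear profile.

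Per kilobase of exon, the germline WT cortex held 9.51 ± 2.02 CPM of Hjurp, 3.49 ± 0.223 of Mlh3, 1.75 ± 0.336 of Tacc3, 1.28 ± 0.297 of Rec8 and 1.21 ± 0.233 of Dsn1 (SD, n = 15). Rec8 and Dsn1, neighbours in this order, differed by less than their SD. Nuclear RNA held 25.5 CPM per kilobase of Hjurp and 3.2 of Mlh3, followed by Tacc3 (2.27), Dsn1 (1.53) and Rec8 (1.41). Partners of the encoded proteins, with the kleisin RAD21 for comparison, spanned a wide range in the same cortex libraries. RAD21, a kleisin like REC8 and not its partner, was encoded at 34.7 CPM per kilobase. The spindle polymerase gene Ckap5 was at 20 and the MIS12 complex gene Mis12 at 6.63. Mis18a, which primes centromeres for CENP-A, was at 1.62 and Cenpa itself at 0.720. The other MIS12 complex genes Pmf1 and Nsl1 were at 0.989 and 0.155 CPM per kilobase. The meiotic partners were scarce, with Stag3 at 0.246, Msh5 at 0.0620, Smc1b at 0.0563 and Msh4 at 0.0152 CPM per kilobase, below the level of Rec8.

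**Figure D5:**
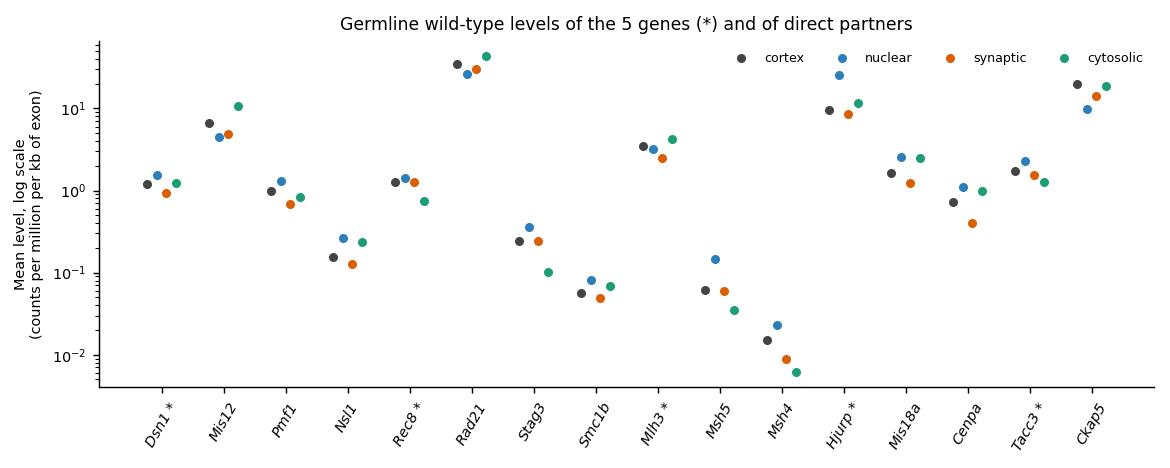
Mean germline wild-type level of the 5 genes (marked with asterisks), of direct partners and of the kleisin gene Rad21 in the 4 preparations, in CPM per kilobase of exon on a log axis. Hjurp has its highest point in the nuclear fraction (25.5), and the meiotic partners Smc1b, Msh5 and Msh4 lie lowest in cortex (0.0563, 0.0620 and 0.0152).

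The pathway lists leave out the 5 members, and with 0.334% of all genes called in germline cortex a count of 0 in them is near the background. In germline cortex 0 of 22 tested kinetochore genes (of 25), 0 of 8 CENP-A deposition genes, 0 of 17 cohesin genes (of 21), 0 of 15 mismatch repair and meiotic recombination genes (of 27), 0 of 10 spindle genes and 0 of 13 cycling-cell genes (of 15) passed by edgeR. None of these 6 lists had a called gene in any of the other 8 genotype contrasts, where edgeR called few or no genes at all. Median log2 fold changes in germline cortex were 0.00 for the kinetochore list, 0.06 for CENP-A deposition, 0.00 for cohesin, -0.07 for mismatch repair and meiotic recombination and -0.01 for the spindle list, against 0.00 over all genes. Of the direct partners in germline cortex, Mis12 had a log2 fold change of 0.01 (SE 0.0581), Pmf1 -0.08 (SE 0.10), Nsl1 0.24 (SE 0.182) and Stag3 -0.10 (SE 0.226). The kleisin gene Rad21 had 0.06 (SE 0.0464). Cenpa had -0.01 (SE 0.127), Mis18a 0.09 (SE 0.0805) and Ckap5 0.04 (SE 0.0610), and Smc1b, Msh4 and Msh5 did not pass the filter on low counts. The values named were closer to 0 than those of Dsn1, Rec8 and Mlh3 in cortex, a difference between genes that was not tested. The members were chosen with this contrast in view and the partners were not, so nothing is read from that difference.

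Between compartments of WT animals, where 65.9% (germline) and 66.9% (conditional) of all genes passed, genes of the same lists were counted on the TMM scale. In the kinetochore, cohesin and spindle lists the share called was below that over all genes, and nothing particular to the lists is read from the counts. Of 18 tested mismatch repair and meiotic recombination genes in the germline line 13 were lower in the synaptic fraction, as were 35.1% of all genes. Their median log2 fold change was -1.03, against -0.06 over all genes. In the conditional line 9 of 15 were lower (median -1.13), as were 35.0% of all genes. The lower genes included Dmc1, the meiotic strand-exchange recombinase (-3.15 and -2.77 in the germline and conditional lines), Sycp2, of the synaptonemal complex (-2.26 and -2.70), and Prdm9, which places recombination hotspots (-1.79 and -1.80). These 3 genes had low germline WT means, 3.5, 5.94 and 5.3 CPM in the nuclear fraction. Synaptic means were 0.724, 1.87 and 1.54 CPM, with the 2 WT males with a nuclear profile included. Mlh3, which also serves crossover formation, had 0.12 and 0.24 on the same scale. Of 21 kinetochore genes in the germline line 5 were higher and 5 lower, among the former Mis12 (0.58) and Zwint (1.19), and in the conditional line 4 of 24 were higher (Mis12 0.69, Zwint 0.89) and 6 lower. Of the CENP-A deposition genes, which serve the same process as Hjurp, 3 were higher and 3 lower of 8 in the germline line, with Cenpa at -0.98 and Mis18a at -0.67, and 3 higher and 4 lower in the conditional line (Cenpa -1.46, Mis18a -0.66). Cohesin genes were split, with 5 higher and 4 lower of 16 in the germline and 5 higher and 5 lower of 18 in the conditional line (Rad21 0.68 and 0.52, Stag1 -1.19 and -1.06). Among 10 spindle genes Ckap5 was higher in both lines (1.03 and 1.18), with 4 higher and 2 lower in the germline and 2 higher and 2 lower in the conditional line.

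Across the 31 germline cortex libraries, after removal of sex and batch, Dsn1 and Rec8 varied together (Pearson r 0.67) and opposite to Mlh3 (-0.53 and -0.67), while Hjurp varied with Tacc3 (0.75). Genotype was not removed and the libraries share depth and preparation, so these values describe the libraries and carry no test. The remaining 6 pairs of members had r between -0.13 and 0.18. The 3 genes most alike to Dsn1 over the same 31 libraries were Asb5 (0.75), Gm43674 (0.68) and Cks1b (0.68), to Rec8 Rmst (0.77), Smyd5 (0.75) and Abca8a (0.72), and to Mlh3 Scrn3 (0.86), Nif3l1 (0.83) and Mtrr (0.80). For Hjurp they were Pan2 (0.94), Uvssa (0.91) and Ccdc163 (0.91), and for Tacc3 Med8 (0.74), Acox3 (0.73) and Ccdc130 (0.73). Hjurp thus had closer matches than any other member. It also had the most reads per cortex library, 1414 to 3568 against 30 to 133 for Rec8, and the part of read number in r was not tested.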

How the data were processed

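RNA-seq gene counts of 123 cortex libraries in 5 tables were used. The authors deposited raw counts per gene, made with STAR 2.5.4b and featureCounts 2.0.0 on GRCm38, per the submitters' processing notes. Per its file header, the conditional cortex table comes from featureCounts 1.6.0 with annotation from Ensembl 95 and no option for strand or pairs, and the sources used here give no strand setting for the others. Exon length is the authors' deposited value per gene.

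The members and lists were chosen with earlier results of these data known. Named genes are the 5 members with their direct partners, Rad21, Chd8, list genes called in a contrast and, for each member, the 3 genes of highest Pearson r. edgeR 4.0.16 (R 4.3.3) served to filter (filterByExpr), scale (TMM) and test the counts by quasi-likelihood, with Benjamini-Hochberg adjustment over all genes at 0.05. Sex was a covariate in every genotype contrast, joined by 2 batch labels for germline cortex and 3 batch groups for the germline nuclear and synaptic fractions. Compartments were compared with the animal number as a block. Intervals are at 95%. Alternatives included each library left out, the replicate number as a block, other covariates, no filter, RLE scaling and DESeq2 1.42.0. The scripts were tested on simulated counts. Some genes of the lists are not reported here by name. The count of the Cre transgene, at most 0.00135% of a library, was left out of totals. P-values of genotype contrasts are relative to the spread between animals of a line. Those between compartments are relative to the spread of differences within pairs. Of conditional cortex, the sample titles give floxed mice without and with Cre, while the protocol text describes other groups, and the titles were followed. Same-numbered libraries deviated together in the conditional nuclear fraction of HET and WT (r 0.16 to 0.24 in 4 of 4 pairs), and the numbers come from the sample labels.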

Additional observations from a re-analysis of the deposited data

Results flagged for a closer look

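In 3 of 55 combinations of a group of 4 to 10 libraries and a gene, a library stood apart from the rest of its group by Dixon's test at the 95% level, where chance gives about 1 in 20. Rec8 was at 4.15 CPM in HET female replicate 2 of the conditional nuclear fraction, against 1.6 to 2.51 CPM in the other 5 libraries of that group. Hjurp was at 144 CPM in WT male replicate 4 of the germline cytosolic fraction, against 82.7 to 90 CPM in the other 4. Rec8 was at 2.69 CPM in HET female replicate 4 of the germline synaptic fraction, against 0.526 to 1.34 CPM in the other 6, and without it the log2 fold change of Rec8 in that fraction was -1.69 rather than -1.08.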

How the results depend on the processing

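The number of members called in the germline nuclear fraction was 0 in the reported test, 2 with DESeq2 and 1 without a filter on low counts. Leaving out each animal in turn left 2 to 4 members called between compartments in the conditional line (4 with all animals). Mlh3 in the germline cytosolic fraction turned from 0.18 to -0.0087 with the replicate block. In the contrasts tested the block changed no member's call, and same-numbered libraries deviated together in every pair only in the conditional nuclear fraction, HET against WT. There it gave 0.39 for Tacc3. In the germline nuclear fraction the block gave -0.47 for Dsn1 and -0.42 for Rec8, and in the synaptic fraction -1.54 for Rec8. In the same fraction Hjurp and Tacc3, -0.01 and 0.07 in the reported fit, were -0.30 and -0.33 with the block, -0.49 and -0.29 with genotype alone, and 0.19 and 0.21 without the 2 WT males with a nuclear profile, and Dsn1 was -0.51 with all batch labels. The cause of these differences was not tested. Leaving out each library in turn kept the direction of the germline cortex values (Dsn1 -0.50 to -0.42, Rec8 -0.73 to -0.61, Mlh3 0.28 to 0.32). The choice of genes used these same libraries, so these ranges are a description and nothing is read from the kept direction. Counts of genes called moved with the method: 57 in germline cortex became 101 with DESeq2, 20 without a filter, 36 with the block and 19 with the choroid plexus covariate, and 0 and 1 within single batches. In the germline nuclear fraction DESeq2 gave 20 and no filter 284, and in the synaptic fraction 0 became 31 with DESeq2, 276 without a filter, 142 without the 2 WT males with a nuclear profile and 988 with all batch labels. In the cytosolic fraction 0 became 4, 21 without a filter and 63 with the block. In the conditional line no filter gave 64 and 346 (nuclear HET and HOM) and 20 and 97 (synaptic HET and HOM), where edgeR with a filter gave 0. At 30 to 133 reads of Rec8 per germline cortex library, small differences in that gene are not detectable.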
